A study of Mus musculus with 9 samples.

Results

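Krüppel-like factors are zinc finger proteins of the C2H2 type, and 10 genes of this family were followed here in granulocyte-macrophage progenitors (GMPs) of mouse bone marrow: Klf2, Klf3, Klf4, Klf5, Klf6, Klf7, Klf9, Klf10, Klf11 and Klf13. They were taken by gene symbol, with earlier results of these data known, and all 10 were measured, among 21872 genes in all. Klf13 was read by 3 probes and each of the others by 1 probe. Where a gene had several probes, the probe with the highest mean over the 9 arrays stood for it.

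The GMPs had been sorted as Lin-cKit+Sca1-CD16/32+CD150- cells from the marrow of C57BL/6 recipient mice, 1 month after a transplant. Recipients in the WT group had received wild-type bone marrow. Those in the LeuA (AE1) and LeuB (AE3) groups had received spleen cells from either of 2 moribund Tet2-/-:AE leukaemic mice. These cells lacked Tet2, an enzyme that oxidises methylated cytosine, and carried AE, the AML1-ETO fusion in which the DNA-binding part of the transcription factor RUNX1 is joined to the co-repressor ETO. Each group had 3 arrays, described as biological triplicates, and RNA was hybridised to 1-colour (Cy3) Agilent mouse expression arrays. Each leukaemia descends from 1 primary mouse, so the spread between its 3 arrays holds no difference between independent leukaemias. Whether an array held 1 recipient or a pool is not given in the sources used here. Tet2 loss, AE, the leukaemia and the donor tissue (spleen against marrow) change together and cannot be told apart. Of the LeuB arrays, LeuB 1 lay on slide 1 with all WT and LeuA arrays, and LeuB 2 and LeuB 3 lay on slide 2. For the LeuB arrays, 1 label field names LeuA/AE3 while the title and source name LeuB, which was used.

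All family members bind GC-rich boxes and CACCC boxes through 3 conserved fingers at the carboxyl end, and they differ in the amino-terminal part, which recruits co-activators or co-repressors. Klf3 (like Klf8 and Klf12) recruits the co-repressor CtBP, Klf9, Klf10, Klf11, Klf13 and Klf16 bind the co-repressor Sin3, and Klf2, Klf4, Klf5, Klf6 and Klf7 are mostly described as activators. In blood formation Klf1 drives red cell genes, Klf4 acts downstream of the myeloid factor PU.1 in monocyte differentiation, and Klf2 keeps lymphocytes quiescent.

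Family members bind, among other places, the promoters of other family members, so the 250 bases before the annotated start were read for the 8 genes with a window in RefSeq (GRCm38.p6), which left out Klf5 and Klf10. Of these, 4 are shown, Klf6 and Klf3 as genes that rose in both leukaemias and Klf4 and Klf9 as genes that fell, each 5′ to 3′ on the strand of the gene. Capitals mark CACCC and GGGCGG on either strand (GGGTG and CCGCCC on the printed one), and adjoining capitals can be overlapping matches. The windows are chr13:5861239-5861488 (plus strand) for Klf6, chr5:64803271-64803520 (plus strand) for Klf3, chr4:55532476-55532725 (minus strand) for Klf4 and chr19:23140976-23141225 (plus strand) for Klf9.
Klf6: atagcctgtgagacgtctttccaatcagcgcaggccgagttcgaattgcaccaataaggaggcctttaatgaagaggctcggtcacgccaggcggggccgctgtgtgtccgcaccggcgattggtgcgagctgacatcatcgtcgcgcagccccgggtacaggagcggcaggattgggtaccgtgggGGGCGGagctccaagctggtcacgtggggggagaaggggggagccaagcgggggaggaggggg
Klf3: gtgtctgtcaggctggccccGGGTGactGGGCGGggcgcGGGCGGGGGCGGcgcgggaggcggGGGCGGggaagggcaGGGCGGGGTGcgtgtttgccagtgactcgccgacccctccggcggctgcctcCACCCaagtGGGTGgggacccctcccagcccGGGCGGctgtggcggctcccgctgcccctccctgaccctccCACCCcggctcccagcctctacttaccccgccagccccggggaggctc
Klf4: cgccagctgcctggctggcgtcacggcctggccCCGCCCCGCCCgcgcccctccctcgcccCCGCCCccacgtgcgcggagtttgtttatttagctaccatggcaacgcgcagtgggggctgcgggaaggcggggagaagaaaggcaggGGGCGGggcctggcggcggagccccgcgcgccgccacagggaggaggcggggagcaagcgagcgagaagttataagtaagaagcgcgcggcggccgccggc
Klf9: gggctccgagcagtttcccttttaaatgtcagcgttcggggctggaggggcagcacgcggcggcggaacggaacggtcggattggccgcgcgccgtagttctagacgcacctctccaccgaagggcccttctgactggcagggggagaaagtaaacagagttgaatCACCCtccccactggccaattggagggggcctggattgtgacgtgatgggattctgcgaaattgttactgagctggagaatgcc

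The 8 windows held 13 to 32 CpG dinucleotides, with a median of 23.5, against a median of 6.0 over all 32851 RefSeq windows of the same length. Their GC content was 59.2% to 78.4%, against a median of 52.4%. GGGCGG occurred in 7 of the 8 windows (all but Klf9) and in 32.7% of all windows, and CACCC in 5 of 8 (Klf2, Klf3, Klf7, Klf9 and Klf13) and in 52.0% of all. Klf3 had the densest set of the 4 shown, with 5 CACCC and 6 GGGCGG matches, while Klf6 had 1 GGGCGG match and no CACCC, Klf4 had 4 GGGCGG matches, and Klf9 had 1 CACCC match. TGTGGT, the core that RUNX1 binds, and GATAAG, which GATA factors bind, were each found in 0 of 8 windows, against 14% and 6.5% of all windows, searched on both strands. With so few windows, all richer in GC than the median window, these counts of 0 do not show a lack of such sites. Promoter composition is not a readout of these arrays, and genes that rose and genes that fell both had CpG-rich windows.

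The values are the log2 intensities deposited by the authors, a brightness of each probe that was made comparable between arrays. A difference of 1 is a doubling, and levels of different probes were not set against each other. The values ran from 5.66 to 18.24 with array medians of 7.02 to 7.04, and arrays of a group correlated at 0.991 to 0.997 over the 21872 genes. The number of arrays limits the precision, with a median residual SD of 0.112 per gene. Background and detection are not part of the deposited table, so for a probe in the dimmest quartile of genes (mean under 6.43) or near it a fold can understate the change in RNA. Calls come from limma's moderated test (two-sided, all 9 arrays in 1 fit), with p-values adjusted by the Benjamini-Hochberg method across the 21872 genes and a threshold of 0.05. In these bulk samples, fewer cells of a type and less RNA per cell cannot be told apart.

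In the leukaemic GMPs, Klf3, Klf6, Klf7 and Klf11 rose and Klf4, Klf5 and Klf9 fell against WT in LeuA and in LeuB. Klf10 rose in LeuB, and Klf2 and Klf13 were not called in either. In LeuA against WT, 7 of 10 were called, 4 higher and 3 lower, while 36.8% of all genes were called, 17.9% higher and 18.9% lower. In LeuB against WT, 8 of 10 were called, 5 higher and 3 lower, while 42.3% of all genes were called, 21.8% higher and 20.4% lower. The groups did not overlap for 7 members in LeuA (49.5% of all genes) and for 8 in LeuB (52.4% of all genes). The members' median absolute log2 difference was 0.95 in LeuA and 1.04 in LeuB, against 0.17 and 0.22 over all genes. These backgrounds hold bright and dim genes alike, while no member's mean over the 9 arrays lay in the dimmest quartile. With genes below the median of gene means left out (Klf2, Klf4 and Klf5 among them), 6619 genes and 5 members were called in LeuA. In LeuB these were 7234 genes and 6 members. A larger share of the brighter genes was thus called than of all genes. Both comparisons use the same 3 WT arrays, so their agreement in direction is no independent repeat.

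**Figure D1:**
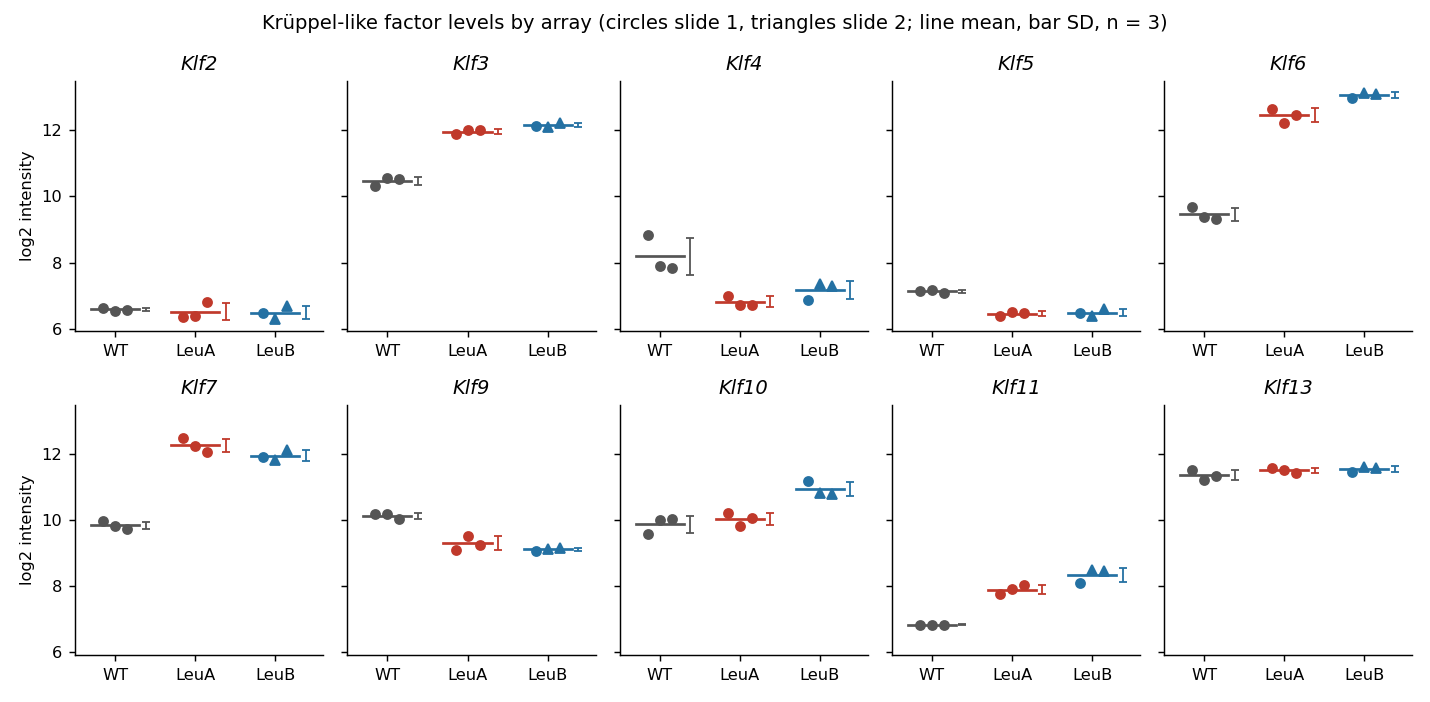
Log2 intensity (y axis) of each of the 10 genes on every array, by group, with circles for slide 1 and triangles for slide 2, the mean as a line and the SD as a bar (n = 3). Klf3, Klf6, Klf7 and Klf11 lay above all WT arrays in both leukaemias, and Klf4, Klf5 and Klf9 below them.

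The count of calls over all genes changed when each array was centred on the median of 11 housekeeping genes. On every array that median was the level of Hprt, which was itself called lower in both leukaemias (-0.26 and -0.34). The list as a whole had median differences of -0.01 and 0, so this scaling followed 1 gene that differed between the groups. It raised the differences from WT by 0.26 in LeuA and 0.34 in LeuB. Calls changed from 3907 higher and 4142 lower to 11664 and 2655 in LeuA, and from 4770 and 4471 to 13483 and 2414 in LeuB. Under that scaling 6 members were higher and 3 lower in each leukaemia, and the directions of the 7 genes named above were kept. The differences below are as deposited.

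Klf6, an activator that in mice is needed for early blood formation in the yolk sac and that promotes inflammatory gene expression in macrophages, rose most among the 10. Its log2 intensity was 9.67, 9.38 and 9.31 on the WT arrays, 12.65, 12.23 and 12.46 on the LeuA arrays, and 12.97, 13.13 and 13.08 on the LeuB arrays. The 3 groups did not overlap, with LeuB highest. The difference from WT was 3.00 (SE 0.13, 7.98-fold, adjusted p = 5.3e-08) in LeuA and 3.61 (SE 0.13, 12.2-fold, adjusted p = 1.4e-08) in LeuB.

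Klf7, known for its part in neuronal outgrowth and, in mouse blood cells, for limiting progenitor function when overexpressed, also rose. The WT arrays read 9.96, 9.81 and 9.74, the LeuA arrays 12.47, 12.24 and 12.06, and the LeuB arrays 11.90, 11.82 and 12.13. All leukaemic arrays lay far above the highest WT array, and the leukaemias overlapped with each other. The differences were 2.42 (SE 0.12, 5.35-fold, adjusted p = 2e-07) in LeuA and 2.11 (SE 0.12, 4.33-fold, adjusted p = 5.1e-07) in LeuB.

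Klf4, the monocyte-lineage activator that is also a reprogramming factor, fell. It read 8.84, 7.90 and 7.83 in WT, 7, 6.73 and 6.71 in LeuA, and 6.86, 7.34 and 7.29 in LeuB. WT 1 stood 0.97 above the mean of WT 2 and WT 3, where the median absolute gap over all genes was 0.09, and all leukaemic arrays were still below the lowest WT array. The differences were -1.38 (SE 0.25, a fall of 2.6-fold, adjusted p = 0.0017) in LeuA and -1.03 (SE 0.25, 2.04-fold, adjusted p = 0.0086) in LeuB. Without WT 1 the differences were -1.056 and -0.704. Over all alternatives run, which include leaving out each array, they ranged from -1.56 to -1.056 in LeuA and from -1.329 to -0.685 in LeuB, with adjusted p up to 0.00751 and 0.0377, and the gene was dimmer than the median gene and so absent from the setting that drops such genes.

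Klf5, an activator of proliferation in intestinal epithelium, fell on a dim probe. Its level was 7.15, 7.17 and 7.08 in WT, 6.37, 6.52 and 6.48 in LeuA, and 6.48, 6.38 and 6.60 in LeuB. Leukaemic arrays lay in or near the dimmest quartile of genes, and each was below every WT array. The differences were -0.68 (SE 0.07, adjusted p = 5.3e-05) and -0.65 (SE 0.07, adjusted p = 6.8e-05) in LeuA and LeuB.

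Klf2, the quiescence factor of lymphocytes and flow-induced factor of endothelium, was dim in every group, at 6.64, 6.54 and 6.57 in WT, 6.36, 6.39 and 6.81 in LeuA, and 6.46, 6.30 and 6.69 in LeuB. The groups overlapped. Its differences were -0.06 (95% interval -0.37 to 0.24, adjusted p = 0.79) in LeuA and -0.10 (-0.41 to 0.20, adjusted p = 0.59) in LeuB. The sign turned positive with housekeeping centring (0.194 and 0.241) without a call.

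Klf3, the CtBP-recruiting repressor, which Klf1 is known to activate in mouse erythroid cells, rose. It read 10.32, 10.55 and 10.52 in WT, 11.87, 12 and 12.01 in LeuA, and 12.13, 12.11 and 12.22 in LeuB. The leukaemic arrays were all above the WT arrays, and the LeuB arrays all above the LeuA arrays. The differences from WT were 1.5 (SE 0.08, 2.82-fold, adjusted p = 2.8e-07) and 1.69 (SE 0.08, 3.23-fold, adjusted p = 1.1e-07).

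Of the Sin3-binding members, Klf11, a TGF-beta-inducible factor, rose. It was at 6.84, 6.84 and 6.82 in WT, 7.76, 7.91 and 8.03 in LeuA, and 8.11, 8.48 and 8.47 in LeuB, again with no overlap between any of the 3 groups. The rise was 1.06 (SE 0.11, 2.09-fold, adjusted p = 3.3e-05) in LeuA and 1.52 (SE 0.11, 2.86-fold, adjusted p = 2.5e-06) in LeuB.

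Klf10, the other TGF-beta-inducible member, read 9.58, 10.01 and 10.03 in WT, 10.21, 9.83 and 10.05 in LeuA, and 11.18, 10.82 and 10.79 in LeuB. The LeuB arrays stood above all others, while WT and LeuA overlapped. It rose by 1.05 (SE 0.16, 2.08-fold, adjusted p = 0.00041) in LeuB. In LeuA its difference was 0.15 (95% interval -0.20 to 0.51, adjusted p = 0.53). It became 0.412 with adjusted p = 0.0499 under housekeeping centring, which followed Hprt alone.

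Klf9, which glucocorticoids and thyroid hormone induce in many tissues, fell. WT arrays read 10.19, 10.18 and 10.02, LeuA arrays 9.10, 9.52 and 9.26, and LeuB arrays 9.05, 9.14 and 9.15. The leukaemias lay below WT and overlapped each other. The differences were -0.84 (SE 0.10, a 1.79-fold fall, adjusted p = 0.00013) and -1.02 (SE 0.10, a 2.03-fold fall, adjusted p = 3.2e-05).

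Klf13, which activates Ccl5 in T cells, was not called on its brightest probe, and its 3 probes did not move alike. The brightest read 11.52, 11.22 and 11.32 in WT, 11.56, 11.52 and 11.42 in LeuA and 11.45, 11.60 and 11.58 in LeuB, with differences of 0.15 (95% interval -0.05 to 0.35, adjusted p = 0.26) and 0.19 (-0.01 to 0.39, adjusted p = 0.11). In the fit over all 37877 probes, the second probe, at means of 9.80 ± 0.15 (SD, n = 3), 9.99 ± 0.05 and 10.14 ± 0.06 in WT, LeuA and LeuB, rose in LeuB by 0.35 (SE 0.08, adjusted p = 0.0093) and was not called in LeuA (0.19, adjusted p = 0.14).

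The third Klf13 probe went the other way. It read 7.66, 7.46 and 7.50 in WT, 7.08, 7.12 and 7.08 in LeuA, and 7.13, 6.80 and 7.01 in LeuB, with differences of -0.44 (adjusted p = 0.005) and -0.55 (adjusted p = 0.0012). With housekeeping centring, which followed Hprt alone, neither fall was called (-0.187 and -0.211, adjusted p = 0.131 and 0.0906). Under it the brightest probe was called higher in both leukaemias (0.406 and 0.537, adjusted p = 0.00742 and 0.00114). Leaving out WT 1 also made the brightest probe's rise in LeuB a call (0.278, adjusted p = 0.0247), and the second probe's rise in LeuA (0.266, adjusted p = 0.0343). On the arrays of slide 1 alone, the second probe's rise in LeuB was 0.298 with adjusted p = 0.143. No single direction for Klf13 can be read from these arrays.

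**Figure D2:**
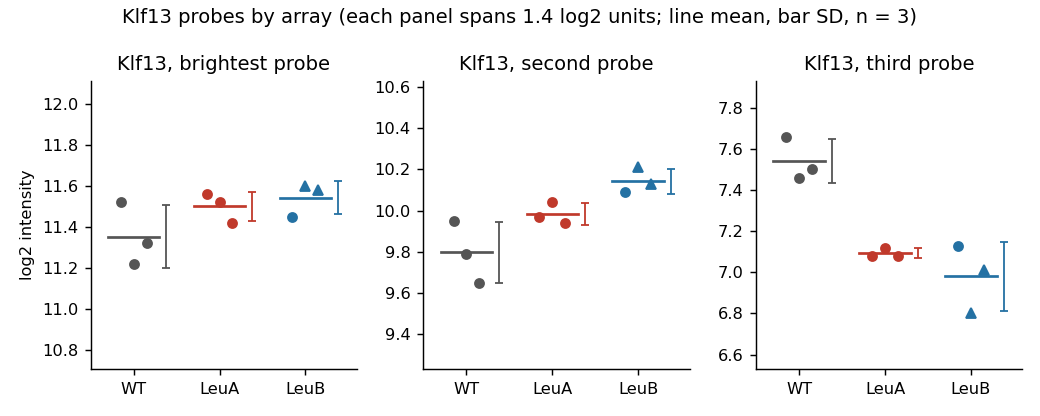
Log2 intensity (y axis, each panel spanning 1.4 log2 units) of the 3 Klf13 probes on every array, by group, with circles for slide 1 and triangles for slide 2, the mean as a line and the SD as a bar (n = 3). The third probe lay lower in all leukaemic arrays than in WT, while the brightest probe overlapped between groups.

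LeuB differed from LeuA for a smaller number of members. Klf6, Klf10 and Klf11 were called higher in LeuB, 3 of 10 genes, against 12.3% of all genes called, 6.91% higher and 5.36% lower. The groups did not overlap for 4 members, these 3 and Klf3, against 30.2% of all genes. Klf10 was 0.90 higher in LeuB (SE 0.16, 1.87-fold, adjusted p = 0.0064) and was called in every alternative run (0.777 to 1.147, adjusted p up to 0.0497). Klf6 was 0.61 higher (SE 0.13, 1.53-fold, adjusted p = 0.014) and Klf11 0.45 higher (SE 0.11, 1.37-fold, adjusted p = 0.027).

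Slide 2 held only LeuB 2 and LeuB 3, so slide and the spread between LeuB arrays cannot be told apart. With slide as a block, as on slide 1 alone, the LeuB estimate comes from LeuB 1 only. On slide 1 alone, where LeuB has 1 array and its spread is taken from the other groups, Klf6 was 0.519 higher with adjusted p = 0.278 and Klf11 0.209 higher with adjusted p = 0.456, and with slide as a block the adjusted p was 0.198 and 0.391. LeuB 1, on slide 1, lay 0.37 below the mean of LeuB 2 and LeuB 3 for Klf11, 0.37 above it for Klf10 and 0.45 below it for Klf4, where the median absolute gap over all genes was 0.14. The Klf6 call was also lost without LeuB 2 (adjusted p = 0.064) or LeuB 3 (0.0531), and the Klf11 call without LeuA 1 (0.0774), LeuA 2 (0.0714), LeuB 2 (0.111) or LeuB 3 (0.103). Klf3 was 0.20 higher in LeuB (95% interval 0.02 to 0.37, adjusted p = 0.15), which became a call with housekeeping centring (0.281, adjusted p = 0.0458), and Klf7 was 0.31 lower (interval -0.58 to -0.03, adjusted p = 0.14). For Klf4 the difference was 0.35 (-0.22 to 0.92, adjusted p = 0.39), for Klf9 -0.18 (-0.42 to 0.06, adjusted p = 0.3), for Klf5 0.03 (-0.14 to 0.20, adjusted p = 0.82), for Klf2 -0.04 (-0.34 to 0.27, adjusted p = 0.87) and for Klf13 0.05 (-0.15 to 0.25, adjusted p = 0.76).

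**Figure D3:**
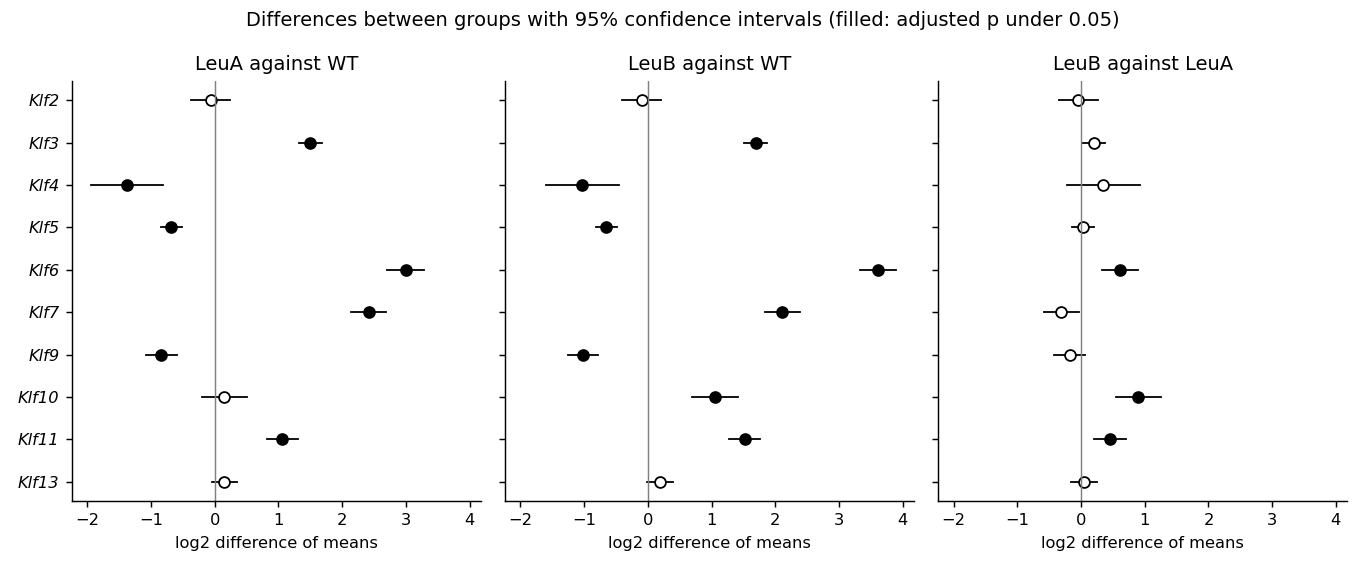
Log2 difference of group means (x axis) with its 95% confidence interval for the 10 genes in the 3 comparisons, filled where the adjusted p was under 0.05. The differences from WT ran from -1.38 (Klf4 in LeuA) to 3.61 (Klf6 in LeuB), and the differences between the leukaemias stayed under 1.

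Among the 7 other family genes measured, 2 were higher (Klf1 and Klf16) and 1 lower (Klf8) in each leukaemia, which brings the family of 17 to 6 higher and 4 lower in LeuA and 7 higher and 4 lower in LeuB. Over all genes, 17.9% were called higher and 18.9% lower in LeuA, and 21.8% and 20.4% in LeuB. These shares also stand beside the counts of the lists below, and a larger share was called among brighter genes. Klf1, the erythroid activator, read 7.07, 7.66 and 7.92 in WT, 12.01, 11.85 and 11.84 in LeuA, and 12, 11.92 and 12.02 in LeuB. Its rise of 4.35 (SE 0.18, adjusted p = 5.1e-08) and 4.43 (SE 0.18, adjusted p = 4.4e-08) was larger than that of any of the 10. Klf8, a CtBP-binding member that Klf1 activates and Klf3 represses in mouse erythroid cells, read 7.96, 8.22 and 8.05 in WT, 6.05, 6.24 and 6.13 in LeuA, and 6.20, 6.14 and 6.27 in LeuB. It fell by 1.94 (SE 0.08, adjusted p = 6.7e-08) and fell by 1.87 (SE 0.08, adjusted p = 8.2e-08), opposite in sign to Klf1 and Klf3, whose part in its level was not tested. Its leukaemic means lay in the dimmest quartile of genes, so these falls can understate the change. Klf16, a Sin3-binding member, rose by 1.15 (SE 0.09, adjusted p = 5e-06) and 0.90 (SE 0.09, adjusted p = 2.9e-05). Klf12, Klf14, Klf15 and Klf17 were not called as deposited, and with housekeeping centring 5 of the 7 genes were called in each leukaemia.

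The SP factors share the finger domain and GC-box binding of the family. Of 8 measured, 2 were called in LeuA (Sp4 and Sp6, both higher) and 4 in LeuB (Sp3, Sp4 and Sp8 higher, Sp7 lower), with median differences of 0.08 and 0.06. Sp4 rose by 0.62 (SE 0.07, adjusted p = 6.8e-05) and 1.10 (SE 0.07, adjusted p = 1.1e-06). In LeuB Sp3 differed by 0.72 (adjusted p = 0.0088), Sp7 by -0.44 (0.023) and Sp8 by 0.32 (0.041). On slide 1 alone these 3 were 0.254, -0.132 and 0.042 (adjusted p = 0.202, 0.505 and 0.76). The count in LeuA was 1 when any array but LeuB 1 or LeuB 3 was left out, and in LeuB it was 2 without WT 1, WT 3, LeuB 2 or LeuB 3.

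**Figure D4:**
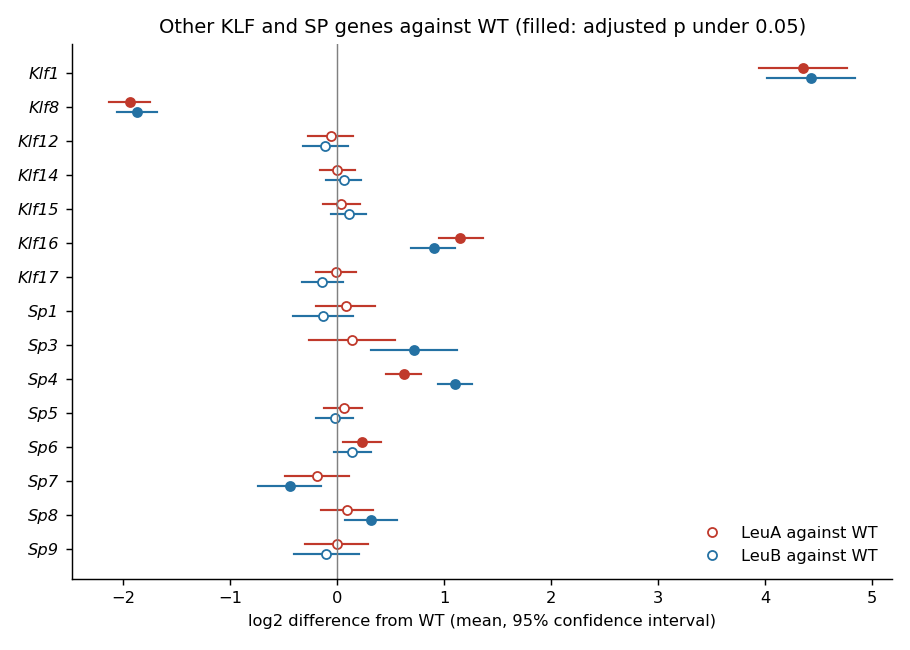
Log2 difference from WT (x axis) with its 95% confidence interval for the other 7 family genes and 8 SP genes, LeuA in red and LeuB in blue, filled where the adjusted p was under 0.05. Klf1 rose by over 4 and Klf8 fell by nearly 2 log2 units in both leukaemias, and most SP genes lay near 0.

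Among 14 proteins known to work with Krüppel-like factors, 5 were higher and 3 lower in LeuA and 6 higher and 2 lower in LeuB, with median differences of -0.05 and 0.25. Ctbp2, a co-repressor that Klf3 and Klf8 recruit, showed the largest change, at 11.01, 11 and 11 in WT, 7.81, 8.42 and 8.46 in LeuA, and 6.05, 6.08 and 6.14 in LeuB. It fell by 2.77 (SE 0.15, adjusted p = 3.5e-07) in LeuA and fell by 4.91 (SE 0.15, adjusted p = 6.6e-09) in LeuB, and it was lower in LeuB than in LeuA by a difference of -2.14 (SE 0.15, adjusted p = 4.2e-05). Its LeuB mean of 6.09 lay in the dimmest quartile of genes, so the differences of LeuB can understate the change. Ctbp1, its paralogue, was called higher in LeuB and not called in LeuA. Fbxw7, the ubiquitin ligase subunit that targets several family proteins, rose by 0.64 and 0.65 (adjusted p = 0.0052 and 0.0044, in LeuB 0.119 on slide 1 alone). Kat2b, an acetyltransferase, rose by 0.55 and 0.54 (adjusted p = 0.001 and 0.0011). Fhl3, a LIM-domain partner, differed by -0.31 (adjusted p = 0.26) in LeuA and by -0.73 (0.01) in LeuB, where the value on slide 1 alone was -0.245 (adjusted p = 0.26).

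Of 16 upstream regulators of family genes, 3 were higher and 7 lower in LeuA and 5 higher and 7 lower in LeuB, with median differences of -0.06 and -0.16. Nr3c1, the glucocorticoid receptor through which glucocorticoids induce Klf9, read 11.31, 11.20 and 11.34 in WT, 6.75, 7.15 and 6.62 in LeuA, and 6.68, 6.55 and 6.75 in LeuB. It fell by 4.45 (SE 0.13, adjusted p = 3.9e-09) and fell by 4.63 (SE 0.13, adjusted p = 3.1e-09), to the dim end of the scale. Tgfbr1, a receptor of the TGF-beta pathway that induces Klf10 and Klf11, fell by 2.99 (SE 0.14, adjusted p = 1e-07) and fell by 2.23 (SE 0.14, adjusted p = 8.4e-07). Tgfbr2, its partner, was called higher in LeuB and not in LeuA. Mef2c, which acts with its relatives upstream of Klf2, fell (differences of -1.31 and -1.29, SE 0.11, adjusted p = 6.3e-06 and 7.1e-06), and Foxo3, a FOXO transcription factor, rose by 1.33 and 1.49 (SE 0.11, adjusted p = 6.1e-06 and 2.6e-06). The other FOXO genes of the list did not follow Foxo3. Foxo1, a known activator of Klf2 in lymphocytes, fell (-1.01 and -1.40, SE 0.16, adjusted p = 0.00061 and 6e-05), and Foxo4 was not called (0.01 and 0.14, adjusted p = 0.95 and 0.18). Spi1, which encodes PU.1, was called lower in both. The part of these regulators in the levels of family members was not tested.

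Of 15 reported target genes of family members, 6 were higher and 5 lower in LeuA and 6 higher and 6 lower in LeuB, with medians of 0.16 and -0.26. Itgb7, an integrin chain whose level in mouse T cells depends on Klf2, read 10.07, 10.20 and 10.14 in WT, 13.26, 13.20 and 13.30 in LeuA, and 13.94, 13.95 and 13.90 in LeuB. It rose by 3.11 (SE 0.06, adjusted p = 3.8e-10) and 3.79 (SE 0.06, adjusted p = 1.4e-10), and by its 9-array profile it was also 1 of the 2 genes nearest to Klf6. Lgals3, a galectin that Klf3 represses in mice, rose by 2.02 (SE 0.29, adjusted p = 0.00039) and 2.99 (SE 0.29, adjusted p = 2.4e-05). Klf3 rose on the same arrays, and its part in the level of Lgals3 was not tested. Ccnd1, the cyclin, fell (differences of -3.28 and -3.18, SE 0.10, adjusted p = 4.8e-09 and 6.3e-09), and so did Bcl6, a transcriptional repressor (-2.98 and -3.03, SE 0.09, adjusted p = 3.9e-09 and 3.7e-09). The leukaemic means of both genes lay in the dimmest quartile, so these falls can understate the change. Thbd was called higher in LeuA (1.368, adjusted p = 0.0155) and lower in LeuB (-1.194, adjusted p = 0.0267). The first call was lost without WT 2 or WT 3 (adjusted p = 0.0519 and 0.0554). The second was lost on slide 1 alone (0.155) and without WT 1 (0.0925), LeuB 1 (0.0653), LeuB 2 (0.0631) or LeuB 3 (0.0613).

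Several family members, Klf2, Klf4, Klf6 and Klf10 among them, are also induced within minutes when cells are stressed or handled, so 14 immediate early genes were read beside them. In each leukaemia 8 were higher and 1, Nr4a1, was lower, with medians of 0.90 in LeuA and 0.56 in LeuB. The mean level of the list was 7.65 to 7.76 on the WT arrays, 8.44 to 8.59 on the LeuA arrays and 8.21 to 8.36 on the LeuB arrays, without overlap, and the group means of Egr2 and Atf3 lay in the dimmest quartile of genes in all 3 groups. Jun rose by 2.59 (SE 0.25, adjusted p = 2.3e-05) and 1.51 (SE 0.25, adjusted p = 0.00086), and Egr1, whose WT mean of 6.36 lay in the dimmest quartile, by 1.73 and 1.80 (SE 0.22, adjusted p = 0.00015 and 0.0001). Ier3 rose by 1.94 and 1.33 (SE 0.15, adjusted p = 4.6e-06 and 6.4e-05), and Btg2 by 1.43 and 1.47 (SE 0.11, adjusted p = 4.1e-06 and 3.4e-06). The list was higher in LeuA than in LeuB on every array, where Klf6, Klf10 and Klf11 were higher in LeuB, and 3 of its genes (Jun, Junb and Ier3) were called lower in LeuB than in LeuA. These calls were lost with slide as a block, on slide 1 alone, and without LeuA 2, LeuA 3 or LeuB 3, and the count was 1 without LeuB 2. The part of this list in the rises of family members was not tested.

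The sorted cells carried GMP surface gates, but their marker genes differed between the groups, which bears on every value above. Of 10 GMP and primary granule markers, 8 were lower in each leukaemia. Kit and Csf3r, a gate protein and the G-CSF receptor, were not called (differences of -0.17 and -0.31 in LeuA, and -0.22 and 0.02 in LeuB), while Elane, the neutrophil elastase gene, fell by 7.14 and fell by 7.11. The list's mean was 14.45 to 14.60 in WT, 9.28 to 9.36 in LeuA and 9.03 to 9.40 in LeuB. Fcgr3, a gene of the CD16/32 gate, was among the 8. Of 11 erythroid markers measured, Klf1 among them, 10 and 11 were higher, with list means of 8.73 to 8.88 in WT and 13.76 to 14.05 in the leukaemias. Klf3, Klf6, Klf7 and Klf11 rose on the same arrays, and the part of the erythroid genes in their rise was not tested. Hba-a2, Hba-a1 and Car1 rose by 5.89, 6.30 and 6.10 in LeuA and by 6.15, 6.78 and 6.20 in LeuB.

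All 7 monocyte markers measured fell in both leukaemias, as Klf4 did. Their mean was 11.73 on WT 1 and 11.11 on WT 2 and WT 3, against 6.68 to 6.70 in LeuA and 6.68, 6.68 and 7.12 in LeuB. WT 1 was thus the highest array for the monocyte list and for Klf4. The differences of Irf8, F13a1 and Ms4a6c were -7.62, -7.41 and -5.06 in LeuA and -7.40, -6.83 and -4.80 in LeuB, and their leukaemic arrays read 5.97 to 7.68. The monocyte list's part in the fall of Klf4 was not tested.

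**Figure D5:**
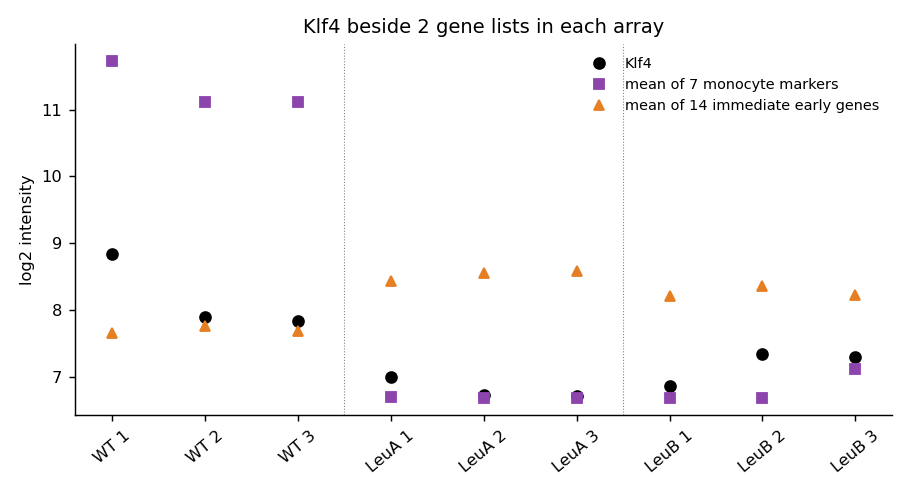
Log2 intensity (y axis) on each of the 9 arrays (x axis) of Klf4, of the mean of 7 monocyte markers and of the mean of 14 immediate early genes. WT 1 was highest for Klf4 and for the monocyte list, and the immediate early list was higher in the leukaemias.

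Late neutrophil markers separated single arrays. The mean of 8 was 8.82 on WT 1 against 10.47 and 10.40 on WT 2 and WT 3, and 9.19 on LeuB 3 against 6.85 and 7.15 on LeuB 1 and LeuB 2, while LeuA arrays read 7.45 to 7.48. In LeuA 6 of the 8 were lower and in LeuB 3, with differences of -4.72, -3.62 and -2.63 for S100a8, S100a9 and Lcn2 in LeuA and of -4.60, -3.84 and -2.44 in LeuB. With WT 1 and LeuB 3 both left out, 7 members were called in LeuA and 8 in LeuB, as with all arrays, beside 7469 and 7529 of all 21872 genes. Of 8 mast cell and basophil markers, 5 were higher in each leukaemia and 2 or 3 lower, with Fcer1a rising by 7.34 and 4.61, Hdc by 1.78 and 1.66, and Cpa3 differing by 0.08 and -0.82. Of 6 megakaryocyte markers, 5 were lower and Gp5 was higher (4.76 and 5.09). Of 7 lymphocyte markers, 4 lay in the dimmest quartile on average in WT, and Cd3e was called lower in LeuB (-0.54). Of 5 stem cell markers, 1 was higher and 2 lower in LeuA, and 2 were higher and 2 lower in LeuB. Meis1 fell (-4.78 and -4.83), as did Procr (-1.28 and -1.36), and Hlf rose by 0.94 and 1.00. Slamf1, which encodes CD150, the protein the sort selected against, rose in LeuB by 0.83 (SE 0.12, adjusted p = 0.00029) and was not called in LeuA (0.19, adjusted p = 0.27). It was also 0.64 higher in LeuB than in LeuA (adjusted p = 0.0083), where Klf6, Klf10 and Klf11 were higher too, and its part in them was not tested.

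For each member, the 2 genes of the table with the nearest 9-array profile were found by the root mean square difference of log2 values, each centred on its own mean, with Pearson's r beside it as a description. Aplp2 (0.159, r = 0.997) and Itgb7 (0.169, r = 0.995) were nearest to Klf6, and Usp32 (0.074, r = 0.995) and Fam126a (0.077, r = 0.995) to Klf3. Cybb (0.159, r = 0.983), a subunit of the phagocyte oxidase, and Trem2 (0.178, r = 0.969), a receptor of myeloid cells, were nearest to Klf4. Vcl (0.129, r = 0.993) and Frmd5 (0.139, r = 0.992) were nearest to Klf7, Dennd2c (0.063, r = 0.997) and Gpcpd1 (0.075, r = 0.993) to Klf11, and Chd3 (0.149, r = 0.957) and Fgd3 (0.15, r = 0.958) to Klf10.

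The profiles nearest to the falling genes were Ahcy (0.077, r = 0.986) and Gpat4 (0.079, r = 0.985) for Klf9 and Dusp9 (0.045, r = 0.997) and Fzd4 (0.048, r = 0.988) for Klf5. Klf2 was nearest to Cct5 (0.088, r = 0.834) and Cacng4 (0.088, r = 0.843) and Klf13 to Spocd1 (0.05, r = 0.913) and Kcnj15 (0.052, r = 0.953), on ranges of 0.51 and 0.38 over the 9 arrays. Abcb4 (0.153, r = 0.999) and Gata1 (0.155, r = 0.998), the erythroid GATA factor, lay nearest to Klf1. These values rest on 9 arrays in 3 groups, so a gene with the same group means stands near by that alone.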

How the data were processed

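Total RNA of 9 GMP samples, 3 each of WT, LeuA and LeuB, was hybridised to single-dye (Cy3) Agilent SurePrint G3 Mouse GE 8x60K arrays, per the labels' protocols. The authors deposited log2 intensities of 37877 probes, already normalized between arrays. RMA, affy and limma are named in the submitters' processing notes, with no version, setting or role, so background correction cannot be traced, and detection and depth are not given. Probes were named through GEO's platform annotation: 24877 have 1 gene symbol, 0 several and 13000 none, and 2637 genes have more than 1 probe. The probe with the highest mean over the 9 arrays stood for a gene.

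Group means were fitted in R 4.3.3 with limma 3.58.1 (lmFit, eBayes defaults, 6 residual and 3 prior degrees of freedom) on all 9 arrays, with no filter on dim probes and no block, and p-values were Benjamini-Hochberg adjusted over 21872 genes. The other probes of Klf13 were tested in the same model over all probes. On simulated data with the layout of LeuA against WT and 21872 genes, 88 of 100 genes changed by 1 log2 unit and 95 of 100 changed by 2 were recovered, with 9 false calls. No other genes were changed in the simulation, whereas 8049 genes were called in the data. Its recovery and false calls therefore do not carry over to the counts reported here. Where nothing says that samples came from separate animals, p-values measure only the spread between these samples.

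The family members, the related lists and the marker lists were chosen with earlier results of these data known. Named were the 10 members and Klf1, up to 4 called genes per related list by the mean difference of both leukaemias, the 3 brightest genes of each marker list, and the 2 nearest profiles of each gene; Sp6, Ctbp1, Tgfbr2, Spi1, Foxo1, Foxo4, Thbd, Nr4a1, Junb, Egr2, Atf3, Fcgr3, Procr and Slamf1 were named after their values were seen. Some genes of the lists were not analysed here, and counts are over the measured ones. Alternatives were renewed quantile normalization, centring on the median of the housekeeping genes (Hprt on every array), slide or replicate number as a block, slide 1 alone and each array left out. Further ones were a filter on dim genes, the mean of all probes, trended and robust eBayes, array weights and, chosen after seeing the data, leaving out WT 1 and LeuB 3. Promoter windows came from RefSeq (GRCm38.p6), read with Python 3.11.15, and figures were drawn with matplotlib 3.10.9.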

Additional observations from a re-analysis of the deposited data

Results flagged for a closer look

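The effects of the 2 leukaemias against the same WT arrays differed by the test of LeuB against LeuA itself for 3 of the 10 members. Klf10 was 0.90 higher in LeuB (SE 0.16, adjusted p = 0.0064 in limma), with all 3 LeuB arrays above all 3 LeuA arrays. Klf6 was 0.61 higher (SE 0.13, adjusted p = 0.014) and Klf11 0.45 higher (SE 0.11, adjusted p = 0.027), also without overlap. LeuB 2 and LeuB 3 lay on another slide than the LeuA arrays. Within slide 1 the differences were 0.519 for Klf6 and 0.209 for Klf11, neither of them called.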

How the results depend on the processing

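Of 561 values for the 10 members under 19 alternatives, 529 kept their direction and their side of the threshold, 11 lost a call, 6 gained one, 15 turned in sign without a call, and 0 turned with one. The directions and calls of Klf3, Klf6, Klf7, Klf9 and Klf11 against WT held in all 19, and those of Klf4 and Klf5 in the 18 that kept them (the filter on dim genes also left out Klf2). Housekeeping centring, which followed Hprt alone, raised the count of all genes to 14319 in LeuA and 15897 in LeuB against WT, through its shift of every difference. In LeuB against LeuA, 1 member (Klf10) was called with slide as a block and 1 on slide 1 alone, and 1 to 3 when single arrays were left out, with the lowest count without LeuB 2 or LeuB 3. Without WT 1 and LeuB 3, Klf11 was 0.396 higher in LeuB (adjusted p = 0.134). Over all genes, 869 were called with slide as a block, 581 on slide 1 alone, 6194 with array weights, 1409 without WT 1 and LeuB 3, and 1380 (without LeuB 2) to 5498 (without LeuB 1) when single arrays were left out, where the main count was 2683 and the count was 1727 without LeuA 2, 1674 without LeuA 3 and 1503 without LeuB 3. The cause of these moves was not tested. Same-numbered arrays do not share an origin by the labels, and their deviations from the group means correlated at -0.041 to 0.103 over 9 pairs, with 4 of 9 arrays closest to their own number, so the numbers were not taken as pairs. The replicate block left 7, 8 and 3 members called and changed no member's call, with 7862, 9154 and 2281 genes called in all. Quantile normalization once more changed no value by more than 0.06. Calls of dim probes (Klf2, Klf5) are limited by unknown background, and so can be the folds of Klf11 (WT mean 6.84) and Klf4 (LeuA mean 6.81).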
